A study of Mus musculus with 28 samples.

Results

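The 2072 regions described here are the promoter and 5′ UTR regions among 6017 stretches of chromatin that the authors listed as more accessible in Yap active than in control lung epithelial cells of mice, measured by ATAC-seq. They were chosen by the annotation that the authors' table gives each region (promoter-TSS or 5′ UTR), within a list that was itself selected on the measured accessibility of the same libraries. Accessibility, scores and widths are therefore given as a description, without a test. Of the 2072 regions, 34.4% of the list, 1780 were annotated as promoter and 292 as 5′ UTR, 284 of these in exon 1. They named 2062 genes, of which 2044 were found in the gene count table.

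Yap active cells carried floxed alleles of Stk3 and Stk4, which encode the Hippo kinases, with SftpcCreERT2. Their controls carried the floxed alleles without the Cre. Yap deleted cells carried a floxed Yap allele with SftpcCreERT2, and their controls again lacked the Cre. Recombination was induced on postnatal day 3 and cells were collected on postnatal day 14 by sorting for EPCAM. RNA-seq libraries numbered 6 for Yap active and 4 for its controls, 5 for Yap deleted and 4 for its controls. ATAC-seq libraries numbered 3 for Yap active and 3 for its controls, from 50000 cells each, with 2 for Yap deleted and 1 for its controls. By the authors' own marking, all 6017 opened regions were listed from both Yap active sets against 1 control set. Which libraries these sets hold is not stated, so the list is not shown to rest on all of them. SftpcCreERT2 acts in cells that express Sftpc, the surfactant gene of alveolar type 2 (AT2) cells, while the EPCAM sort takes other epithelial cells as well. In such bulk samples, fewer cells of a type and less RNA per cell cannot be told apart. Whether libraries of a group stem from separate animals is not given, so the p-values reflect only the spread among these samples, which may be technical. The labels call the sorted cells AT2.

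The Hippo kinases phosphorylate Yap and its relative Taz (Wwtr1) and keep them out of the nucleus. Without the kinases both enter the nucleus and act with the Tead factors, which bind DNA, mostly at enhancers and less often at promoters. Yap and Taz take part in the step from AT2 to flat alveolar type 1 (AT1) cells. A promoter is the stretch around a gene's start site, and many promoters of broadly expressed genes are rich in CG dinucleotides (CpG) and open in most cell types.

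The sequences around motifs of Tead, AP-1, nuclear factor I (NFI), Klf and Nkx2-1 factors are shown because these factors act in alveolar cells or with Yap. For each motif the windows come from the highest-scoring opened promoter regions that hold a match upstream of a RefSeq start site. Capitals mark the match, and each window is read 5′ to 3′ on the strand of the gene.
Rtn4, Tead motif GGAATG on the other strand: aagtccccgcccCATTCCccaactacacta
Pitrm1, Tead motif on the other strand: agacgtcgtctcCATTCCacctgtccaatg
Zyx, AP-1 motif TGANTCA: agtgcggacagTGAGTCAgttctccagcac
Ghr, AP-1 motif: tgttggcttccTGAATCAgggtgttgagtg
Osbp, NFI motif TTGGCA on the other strand: gcccgagagaaaTGCCAAtgtccgcggggt
1110020A21Rik, NFI motif: tgcccaccttaaTTGGCAaggtcaactatc
Rap2b, Klf motif CCACACCC: gcccctgtttgCCACACCCtctgtcacgcc
Mms19, Klf motif: acatctcgtagCCACACCCacttccccctc
Ntmt1, Nkx2-1 motif CACTTGA on the other strand: aggccccgtcgTCAAGTGacctgggcctgg
Foxo1, Nkx2-1 motif: agactcagaaaCACTTGAgaattacagaaa

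These windows of 30 bases come from the RefSeq promoter table of build GRCm38.p6, the mm10 genome that the authors' notes name. The Rtn4 window lies at chr11:29692711-29692740 on the plus strand, inside a region with a score of 408.9. The Zyx window lies at chr6:42349696-42349725 on the plus strand, inside a region with a score of 285.4. Zyx encodes zyxin, a protein of focal adhesions, and Rtn4 encodes the reticulon Nogo. The Ghr window, at chr15:3581858-3581887 on the minus strand, belongs to the growth hormone receptor, and its region had a score of 227.5. The Foxo1 window lies at chr3:52268133-52268162 on the plus strand in a region with a score of 169.9, and Foxo1 encodes a forkhead factor regulated by insulin signalling. The matches began between 23 and 193 bases upstream of the start site.

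The shares of start sites that hold these motifs are given as a description, with no test between sets. The window used was 250 bases before to 50 after each RefSeq start site. A total of 2143 such start sites, of 1868 genes, lay inside the opened promoter regions. The set beside them was the 13606 start sites, outside these regions, of genes with enough RNA counts to be tested. The Tead motif was held by 11.6% of start sites in opened promoters (95% Wilson interval 10.3% to 13.0%), against 12.8% of the outside set and 14.7% of all 32851 start sites. AP-1 was held by 4.43% (3.64% to 5.39%), against 5.75% outside and 7.81% of all. The NFI motif was held by 9.75% (8.57% to 11.1%), against 11.9% outside and 14.1% of all. Klf was held by 3.92% (3.18% to 4.83%), against 3.71% outside and 3.56% of all. Nkx2-1 was held by 1.54% (1.1% to 2.15%), against 2.33% outside and 3.06% of all. The outside share lies within the interval for Tead and Klf and above it for AP-1, NFI and Nkx2-1. Start sites of the same gene are counted separately, so the intervals are no test. A match is a run of letters and not a bound site.

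By contrast, the GC box of Sp and Klf factors (GGGGCGGGG) was held by 26.6% of start sites in opened promoters, against 18.8% outside and 11.4% of all. It can overlap other GC-rich motifs. The E-box CACGTG was held by 12%, against 8.89% outside and 7.15% of all. The TATA box TATAAA was held by 5.23%, against 8.34% outside and 13.6% of all. CCAAT, the motif of NF-Y, differed little, at 38.5%, 36.8% and 37.4%. The same held for the Ets motif CCGGAAG between opened promoters (15.6%) and the outside set (15.0%), with 8.86% of all start sites. Nrf1 (GCGCANGCG) was held by 13.1%, 11.2% and 6.25% in the same order. The motifs of Creb (TGACGTCA) and YY1 (AAGATGGCG) were held by 2.85% and 2.71% in opened promoters, against 2.81% and 2.42% outside. All motifs were searched on both strands. The median GC content was 64.7% in opened promoters and 59.3% outside. CpG-rich start sites, with a CpG ratio over 0.6 and a GC content over 50%, made up 79.4% in opened promoters, 56.3% outside and 33.3% of all.

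The opened promoter regions stood at the top of the authors' score, whose scale is not stated and which is used here only to rank. Their median score was 77.8, with quartiles at 46.9 and 124.1 and a range from 9.73 to 562.6. Opened intron regions (1968) had a median score of 31.6 and opened intergenic regions (1585) one of 29.2. Scores over 100 were given to 36.2% of the opened promoters, 9.15% of intron and 5.17% of intergenic regions. Among the 100 highest-scoring of all opened regions, 67 were promoter or 5′ UTR regions. The promoter and 5′ UTR subsets did not separate, with medians of 77.6 and 78.5.

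**Figure D1:**
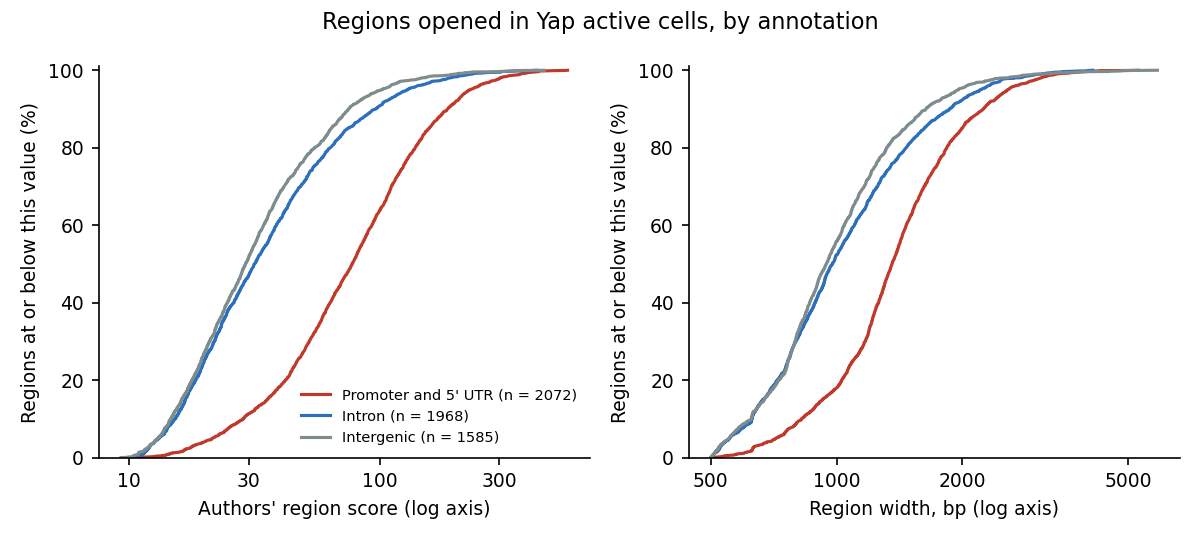
Cumulative share of opened regions by the authors' score (left, log axis) and by width in bp (right, log axis), for promoter and 5′ UTR, intron and intergenic regions. The promoter curve lies to the right of the other 2 in both panels over most of the range, with medians of 77.8 in score and 1358 bp in width.

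Opened promoter regions were also wide. Their median width was 1358 bp (501 to 5268 bp), against 977 bp in introns and 945 bp between genes. Regions over 2 kb made up 15.0% of promoters, 7.67% of intron and 4.61% of intergenic regions. Width and score went together within the opened promoters (Spearman 0.68 over 2072 regions, a description, since both come from the same reads).

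The highest score, 562.6, belonged to Hjurp, whose product loads the centromeric histone CENP-A, with a region of 3633 bp at chr1:88276517-88280150. Next came Garem1 (552.1), an adaptor in growth factor signalling, Evi5l (496.4), a regulator of Rab GTPases, and Sertad2 (458.9), a transcriptional coregulator. The cell adhesion gene Cadm2 had 435.8, Tmem60 had 434.2, the arrestin family gene Arrdc4 had 433.5 and the autophagy gene Wipi1 had 430.8. None of these is an alveolar marker. The lowest scores were 9.73 for Rdh1, 10.4 for the histone gene Hist2h2aa2 and 11.4 for Gpr4, a receptor that senses protons.

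The widest region was that of Tgif1 (5268 bp), a homeobox corepressor of TGF-β signalling, followed by Trim8 (5090 bp), a ubiquitin ligase, and Etv1 (4292 bp), an Ets factor downstream of FGF. Fzd8, a Wnt receptor, had 4261 bp, Spry2, an inhibitor of FGF signalling, had 4187 bp, and Irs1, the insulin receptor substrate, had 4127 bp. Foxp2, a lung forkhead factor, had 4037 bp and the ephrin gene Efna5 had 3971 bp. The regions at Tgif1, Trim8 and Foxp2 were annotated as 5′ UTR and the other 5 as promoter.

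Most opened promoter regions sat on the start site itself, which their choice by a promoter or 5′ UTR annotation largely sets. By the authors' distances, 94.7% of them covered the start site, and 67.7% were centred within 200 bp of it. A RefSeq start site lay inside 74.2% of them. The median centre was 26 bp upstream (−26 bp), and promoter regions ran from −985 to 824 bp. Upstream centres made up 56.7%. A further 767 opened regions with other annotations were centred within 1 kb of a start site, so that 2832 regions (47.1% of all) were within 1 kb of a start site. Start sites of different genes on both strands lay in 15.8% of the opened promoter regions, and 11.3% were annotated to a transcript of another gene than the one the table names. At such shared promoters the RNA of the named gene need not be that of the region's only gene.

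**Figure D2:**
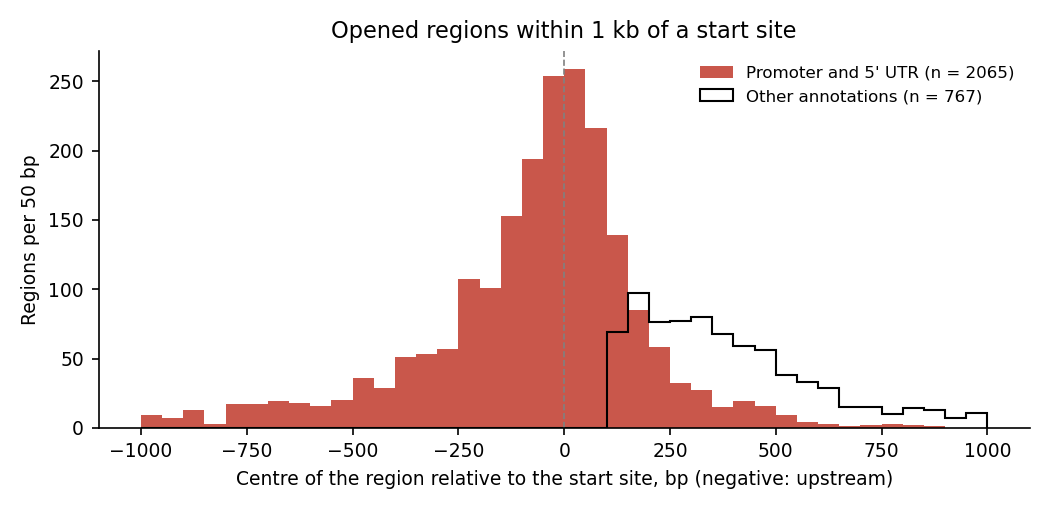
Number of opened regions per 50 bp by the distance of their centre from the start site, in bp, for promoter and 5′ UTR regions (filled) and opened regions with other annotations (outline). Promoter and 5′ UTR regions pile up around a median of −26 bp, and the 767 others lie downstream.

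Protein-coding genes were named by 95.9% of the opened promoter regions, against 85.2% of the other opened regions, and non-coding RNA genes by 3.81%, against 13.9%. Among genes with microRNA names, 1 host gene included, 8 of 640 in the count table had an opened promoter (1.25%), against 8.72% of all genes in that table. They included Mir200c and Mir203, microRNAs of epithelial cells, and Mir210, which hypoxia induces. The mature forms are shown with the seed (bases 2 to 8) in capitals, because no other element of these genes is measured here.
mmu-miR-200c-3p: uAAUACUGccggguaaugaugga
mmu-miR-203-3p: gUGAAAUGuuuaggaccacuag
mmu-miR-210-3p: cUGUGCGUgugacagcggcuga
The 3 seeds differ. The regions had scores of 42.1 (Mir200c), 38.5 (Mir203) and 127.1 (Mir210), and mature microRNAs are not measured by these RNA libraries.

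Only 10 genes had 2 opened promoter regions, and none had more. They were Aldh7a1, Arhgap24, Asap1, Fbrsl1, Pde1b, Pde7b, Prkag2, Rarg, Sri and Tpd52. For Asap1, a regulator of Arf GTPases, the scores were 152.4 and 46.95. For Rarg, a retinoic acid receptor, they were 113.9 and 80.05.

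The share of genes with an opened promoter differed between gene classes, from 38.1% of AP-1 and Atf factors to none of the endothelial and leukocyte markers. Of the 15662 genes with a readable name that passed the count filter, 1984 (12.7%) had an opened promoter. The share was 38.1% of AP-1 and Atf factors (8 of 21), 31.9% of lung epithelial transcription factors (15 of 47), 30.0% of TGF-β and BMP genes (9 of 30), 28.2% of Wnt genes (11 of 39) and 28.2% of Hippo components and Tead factors (11 of 39). It was 25.7% of Yap and Tead target genes (9 of 35), 22.9% of FGF and ERK genes (8 of 35), 21.1% of NFI and Klf factors (4 of 19) and 20.0% of Notch genes (6 of 30). AT2 markers, at 12.1% (4 of 33), and club and goblet markers, at 11.1% (2 of 18), stood near the share of all genes. AT1 markers stood at 5.88% (2 of 34), ciliated markers at 6.25% (1 of 16) and homeobox factors of the Hox, Pax, Lhx, Dlx and related families at 4.0% (1 of 25). No endothelial marker (0 of 16) and no leukocyte marker (0 of 17) had one, and 1 of 18 mesenchymal markers did (Col1a2). These lists were chosen with earlier results known and differ in how many genes are broadly expressed.

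**Figure D3:**
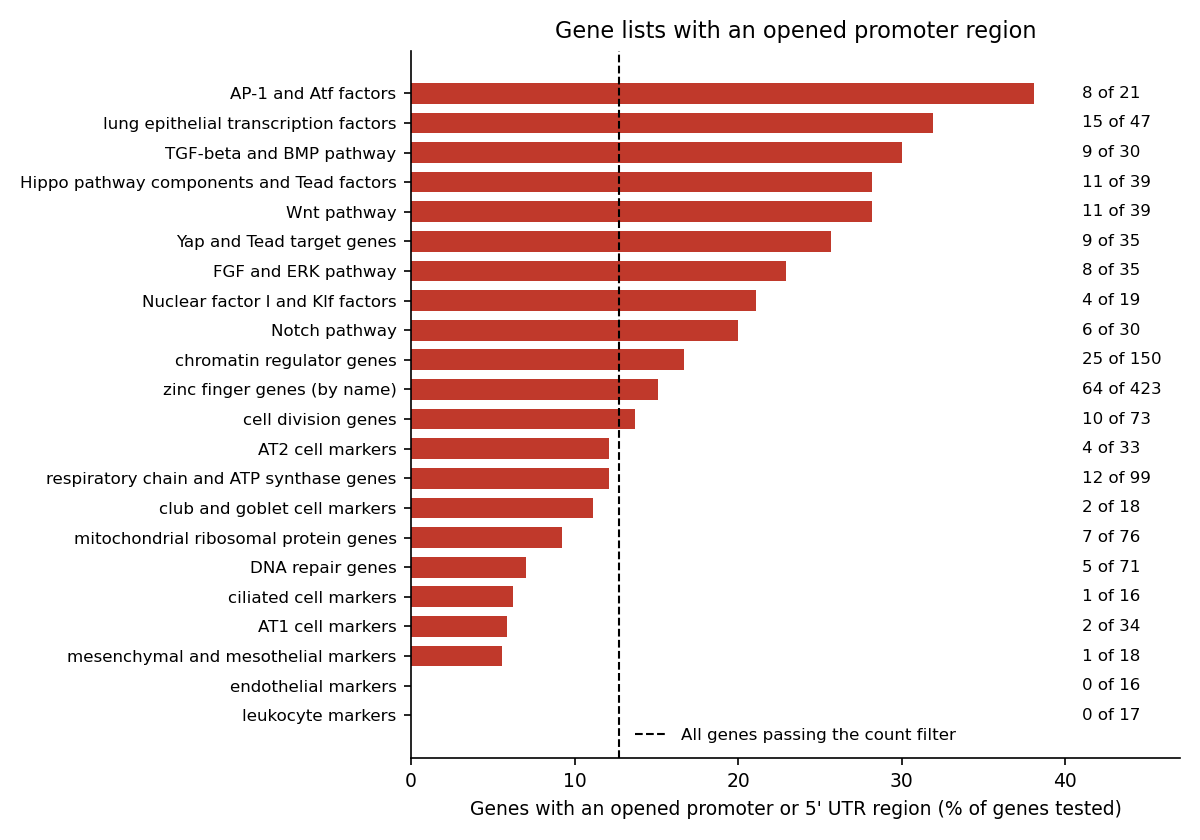
Percent of each gene list with an opened promoter or 5′ UTR region, among genes that passed the count filter, with the number of genes beside each bar. The dashed line is the 12.7% of all genes, and the AP-1, lung factor, TGF-β, Hippo and Wnt lists lie above it while AT1, mesenchymal, endothelial and leukocyte markers lie below.

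The Hippo genes with an opened promoter were the scaffolds Amotl1 and Amotl2, the cadherin Dchs1, Frmd6, the LIM protein Limd1, the kinase Mark3, the phosphatase subunits Strn and Strn3, Tead3, Wwc2 and Wwtr1, which encodes Taz. Wwc2 had the highest score among them (165.3) and Dchs1 the lowest (24.6). The Yap and Tead target genes were Amotl2, Arhgef17, Asap1, Axin2, Cdc42ep3, Crim1, Ddah1, Myof and Tgfb2, with scores from 28.8 (Myof) to 152.4 (Asap1). Axin2 is also a target of Wnt signalling. Both lists had a median score of 62.7, below the median of 77.9 over all count table genes with an opened promoter.

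Among NFI and Klf factors the regions lay at Klf6 (253.7), Klf7 (214.2), Klf9 (143.4) and Nfib (115.0), where Nfib is needed for lung maturation. The lung factors were Cebpa, Elf3, Epas1, Etv1, Foxp1, Foxp2, Hif1a, Id1, Irx1, Rxra, Sox2, Sox4, Sox9, Stat3 and Tbx3. Scores ran from 25.3 at Sox9, a factor of the lung bud tip, to 215.8 at Foxp2. The AP-1 and Atf factors were Atf2, Atf7, Batf3, Creb1, Crem, Fos, Fosb and Fosl2, with Creb1 the highest at 215.6. The AT2 markers were Cebpa, the protease gene Ctsc (128.9), the mucin gene Muc1 (70) and the surfactant gene Sftpd (33.1). The AT1 markers were Prdx6 (77.1) and Sema3e (69.4).

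Tgfbr1 (299.2), a TGF-β receptor, led the TGF-β and BMP list, and the Wnt receptors Fzd8 (282.4) and Fzd7 (138.6) led the Wnt list. Spry2 (253.3), Egr1 (218.2) and Dusp6 (211.4), all of them genes that FGF and ERK signalling induces, led the FGF list. Rbpj (200.3), the DNA-binding partner of Notch, led the Notch list, followed by the protease Adam10 (146.8). Hjurp, the mitotic kinase Ttk (174.8) and the kinetochore motor Cenpe (157.1) led the 10 cell division genes. Among 52 ubiquitin system genes Otud6b had 354.6, and among 64 tested zinc finger genes Zfp367 had 301.6.

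The authors' peak lists, in the MACS broad-peak format, come from the same ATAC assay on which the regions were chosen. Their overlaps with the regions are therefore a description and no independent support. The authors' names for these lists hold the word up, so each may hold only peaks higher in its group. The contrast between the Yap active and control lists would then be fixed in advance. A low share in a control list does not show that controls lack accessible chromatin there. Of the opened promoter regions, 97.2% overlapped a peak of the first Yap active list by at least 1 bp and 47.3% one of the second, against 0.241% for the first control list and 7.29% for the second. Opened intron and intergenic regions gave 91.4% and 92.3% for the first Yap active list, 26.4% and 22.3% for the second, 0.203% and 0.252% for the first control list and 13.6% and 15.1% for the second. The first control list held the most peaks of the 4 (345109), against 28418 in the second. Regions with a peak in both Yap active lists made up 46.9% of the opened promoters, 25.3% of intron and 21.4% of intergenic regions. For opened promoters with a peak, the median fold enrichment that the authors give was 2.63 in the first and 1.66 in the second Yap active list. In the control lists it was 2.44 (5 regions) and 2.27 (151 regions). Intron and intergenic regions had higher medians in the Yap active lists, at 2.89 and 2.96 in the first and 1.81 and 1.91 in the second. These peaks are shallow. When peaks had to cover at least 50% of a region, the first share was 2.32% and the second 0.145%, and no opened promoter overlapped a peak with −log10 q of at least 5 (0%), since only 2 and 1 peaks of the Yap active lists reach it.

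The regions listed for Yap deleted cells, which rest on 2 Yap deleted and 1 control ATAC-seq library, shared few places with the opened regions. Of the 532 regions opened after Yap deletion, 14 overlapped an opened promoter (0.676% of the promoters and 2.63% of that list), and the other opened regions overlapped it at a like share of 0.659%. The highest scores among them were Oaz1 (125.0), Ccdc34 (108.7), Pip4k2a (99.2), Plekhg2 (91.1), Lancl3 (61.7), Vps37d (60.2), 2610203C22Rik (50.7) and Mpdz (46.3). Of the 676 regions closed after Yap deletion, 3 overlapped one (0.145% of the promoters and 0.444% of that list), at F2r, a thrombin receptor, Mir200c and Sftpd. At Sftpd the region opened in Yap active cells (score 33.1) and the one closed in Yap deleted cells (score 30.0) share bases at the 5′ end of the gene. Of the other 3945 opened regions, 1.29% overlapped a region closed after Yap deletion. Within the Yap active line, 2 opened promoters, at Map3k11 and Ccr6, overlapped a closed region.

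The RNA libraries did not follow their labels throughout. Stk3 lay at 30.6 to 35.4 CPM (counts scaled to a common library size) in Yap active libraries 2 to 6 and at 49.5 CPM in the library labelled Yap active 1, against 53.5, 50.2, 54.6 and 34.0 CPM in controls 1 to 4. Esr1, whose human form supplies the ligand-binding part of CreERT2, lay at 211.4 to 334.8 CPM in Yap active libraries 2 to 6. It lay at 1.97 CPM in the library labelled Yap active 1, against 2.06, 160.0, 3.20 and 0.964 CPM in controls 1 to 4. The libraries labelled Yap active 1 and control 2 thus stand with the opposite group for Esr1. In the other line Esr1 ranged from 242.4 to 531.4 CPM in Yap deleted libraries and lay at 87.1 CPM in the library labelled control 2, against 0.952 to 3.91 CPM in its other controls. The first principal component of the Yap active table (58.1% of variance) separated Yap active 2 to 6 and control 4, a run of adjacent columns, from Yap active 1 and controls 1 to 3, another run. These runs are called the first and second library set, and what they stand for is not given. Library totals ran between 34979553 and 43544559 counts here, and between 31947748 and 42924739 counts for the Yap deleted line.

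Epcam lay at 143.9 to 249.3 CPM in Yap active libraries against 152.6 to 240.8 CPM in controls. AT2 markers summed to 76591.1 to 200692.8 CPM in Yap active and 77731.1 to 196429.3 CPM in controls, with 30 of 33 higher in Yap active. The lowest Yap active sum was library 1 and the highest control sum control 4. Club and goblet markers summed to 7592.8 to 27768.1 CPM in Yap active, lowest in library 1, and 6803.7 to 18770.6 CPM in controls, highest in control 4, with 18 of 18 higher. Over the whole mesenchymal list the summed level was 1626.8 to 9116.1 CPM in Yap active libraries and 3345.1 to 9559.1 CPM in controls, and 18 of 18 genes were lower in Yap active. The highest Yap active sum was that of library 1 and the lowest control sum that of control 4. The summed endothelial level was 224.9 to 355.2 CPM in Yap active and 228.3 to 584.8 CPM in controls, with 15 of 16 tested genes lower. Leukocyte markers without Lyz2, which AT2 cells express, summed to 54.4 to 145.1 CPM in Yap active and 59.7 to 96.7 CPM in controls. In the Yap deleted table the endothelial sum was 234.7 to 331.1 CPM in Yap deleted libraries, against 2698.5 to 3202.9 CPM in controls 1 and 2 and 326.0 to 328.5 CPM in controls 3 and 4. AT2 markers summed to 85140.8 to 125056.0 CPM in Yap deleted libraries, with 31 of 33 higher. They summed to 45486.3 to 50379.2 CPM in controls 1 and 2 and 86584.7 to 146390.8 CPM in controls 3 and 4. AT1 markers summed to 10012.8 to 19102.9 CPM in Yap deleted libraries, with 30 of 34 lower. Their sums were 10714.9 to 13144.2 CPM in controls 1 and 2 and 17426.1 to 29469.6 CPM in controls 3 and 4. In the Yap active table AT1 sums were 13605.9 to 22058.0 CPM in Yap active and 9704.1 to 19601.0 CPM in controls, with 25 of 34 higher. The part of these lists and of the library sets in the values below was not tested.

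As a group, the genes with an opened promoter had RNA differences between Yap active and control cells close to those of all genes. Of them, 1984 had enough counts to be tested in the Yap active line, 97.1% of those counted, against 66.8% of all genes. Of these, 950 were higher and 1034 lower in Yap active cells, with a median log2 fold change of −0.016 and quartiles at −0.27 and 0.23. Over all 15685 genes tested the median was −0.005. No gene with an opened promoter passed the edgeR quasi-likelihood test at an adjusted p under 0.05, and none did among all genes (0 of 15685, 0%). DESeq2 called 2 of them and 19 genes in all, and limma-voom with sample weights 1165 (58.7%) and 8845 (56.4% of all genes). At an unadjusted p under 0.05, 133 of them (6.70%) were higher and 113 (5.70%) lower, against 6.65% higher and 5.98% lower of all genes. These counts moved with single libraries. Leaving out 1 at a time gave 42 to 405 higher and 32 to 449 lower. The counts were 347 and 449 without Yap active 1, 405 and 317 without control 4, and 42 and 32 without control 3. Shares of all genes in these fits are not given here, so the swings cannot be read as particular to opened promoter genes.

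The libraries themselves differed little in this summary. The median difference from the mean of the controls, over the genes with an opened promoter, was −0.039 to 0.036 in the 6 Yap active libraries and −0.013 to 0.017 in the 4 controls on the log2 scale. With the library set as a covariate the median was 0.005, and 37 were higher and 18 lower at an unadjusted p under 0.05 (1.86% and 0.907%, against 1.86% and 0.937% of all genes). Without the libraries labelled Yap active 1 and control 2 the median was −0.022, and 255 were higher and 361 lower (12.9% and 18.2%, against 13.6% and 15.7% of all genes). In that fit 0 of 1983 opened promoter genes were called at an adjusted p under 0.05, against 13 of all 15602 genes (0.0833%). Within the first library set (5 Yap active against 1 control) 46.2% of opened promoter genes were higher in Yap active, against 49.1% of all genes. Within the second (1 against 3) 53% were, against 48.4% of all genes.

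Between quartiles of the region score the RNA medians differed by small amounts, with no test of the difference. In the lowest-scoring quartile of regions (9.73 to 46.9) 52.6% of tested genes were higher in Yap active, with a median log2 fold change of 0.031. In the second quartile 54.5% were higher, with a median of 0.052. In the third 45.6% were higher, with a median of −0.037. In the highest-scoring quartile (124.0 to 562.6) 39.0% were higher, with a median of −0.079. Among all genes tested 49.4% were higher. Across 1984 genes the Spearman correlation of score and log2 fold change was −0.069, and that of width −0.067. A fit with the library set as a covariate gave medians of 0.022, 0.012, 0.002 and −0.015. In Yap deleted cells, chosen neither by the list nor by these libraries, the medians were 0.037, 0.040, −0.043 and −0.047. Without the deleted line's controls 1 and 2 they were 0.042, −0.002, 0.002 and 0.024, and the higher quartiles no longer lay lowest.

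**Figure D4:**
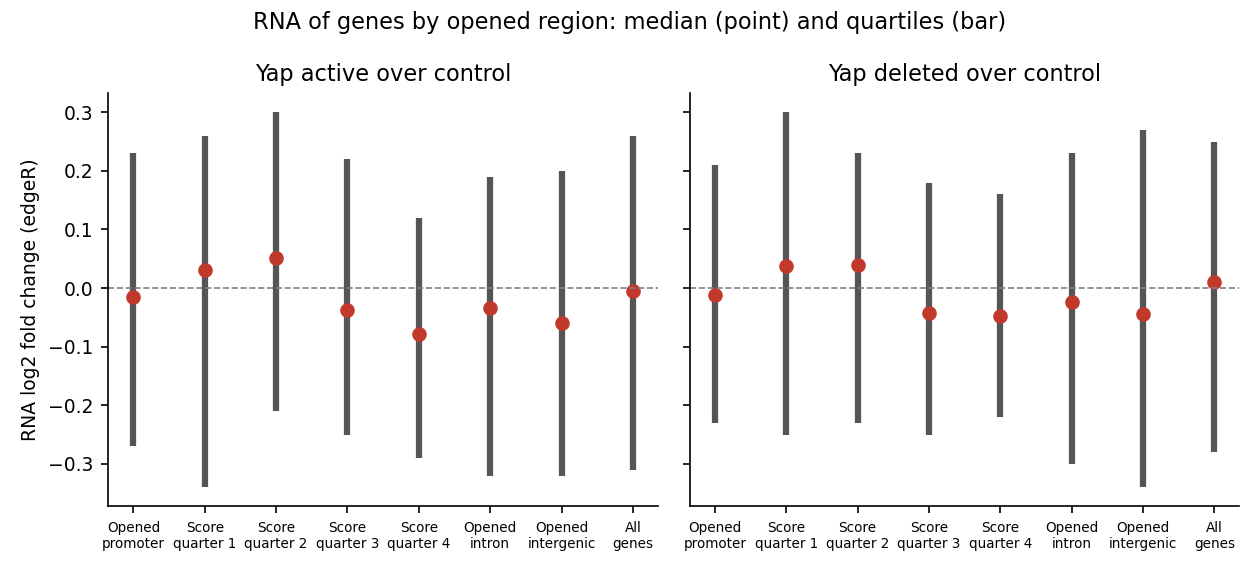
RNA log2 fold change of Yap active over control (left) and Yap deleted over control (right) for genes at opened promoter, intron and intergenic regions, for the promoter genes by quartile of region score, and for all genes. Points are medians and bars run between the quartiles, and every bar spans 0.

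Genes at opened intron or intergenic regions without an opened promoter gave like values. Their medians were −0.034 (1248 genes) and −0.059 (620 genes) in Yap active over control, against −0.016 for the opened promoter genes.

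The genes of the 8 highest-scoring regions had log2 fold changes in RNA between −0.27 (Arrdc4) and 0.02 (Evi5l), and those of the 8 widest between −1.03 (Etv1) and 0.40 (Trim8). Hjurp had 2.93, 3.76 and 4.54 CPM as lowest, median and highest of the 6 Yap active libraries, against 4.79, 3.4, 2.46 and 4.93 CPM in controls 1 to 4. The Yap active values lie within the range of the controls (log2 fold change −0.07 ± 0.23 SE, adjusted p = 0.869 in edgeR). Garem1 averaged 28.4 ± 5.48 CPM in Yap active and 28.2 ± 2.19 CPM in control libraries (SD, n = 6 and 4). Tgif1, at the widest region, had 23.0, 27.6 and 30.4 CPM in Yap active and 26.3, 36.9, 21.3 and 30.5 CPM in controls, which enclose it (−0.07 ± 0.15 SE, adjusted p = 0.805). Etv1 stood at −1.03 ± 0.48 SE, Efna5 at −0.66 ± 0.30 SE and Trim8 at 0.40 ± 0.17 SE, and with the library set as a covariate at −0.29, −0.03 and 0.16.

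Among the 11 Hippo genes with an opened promoter, 5 were higher and 6 lower in Yap active, with a median log2 fold change of −0.12, and 0 reached an unadjusted p under 0.05. The median was 0.09 under the library-set covariate and 0.27 within the second library set, where the sign turned. The 28 tested Hippo genes without one had a median of −0.06. Wwtr1 had 147.5, 168.7 and 219.0 CPM as lowest, median and highest of the 6 Yap active libraries, against 184.8, 189.9, 189.8 and 202.6 CPM in controls 1 to 4. Its highest value is that of the library labelled Yap active 1, and the groups overlap (log2 fold change −0.14 ± 0.12 SE, adjusted p = 0.517). Tead3, a DNA-binding partner of Yap, had 69.9, 86.9 and 95.5 CPM in Yap active and 66.8, 77.6, 75.9 and 87.4 CPM in controls, which overlap (0.13 ± 0.12 SE, adjusted p = 0.498). Amotl2, which binds and restrains Yap and is itself a target, had 240.7, 297.9 and 386.6 CPM in Yap active and 204.4, 325.4, 226.1 and 276.6 CPM in controls (0.25 ± 0.18 SE, adjusted p = 0.426). The groups overlap, and the highest Yap active value is again library 1. The largest difference of the list was that of Dchs1, at −0.55 ± 0.56 SE, which is within its error, and at 0.09 under the covariate.

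Of the 9 Yap and Tead targets with an opened promoter, 3 were higher and 6 lower in Yap active (median −0.31), and the 26 without one had a median of −0.10. Under the covariate the median of the 9 was 0.20, and within the first and second library set it was −0.05 and 0.22. Cdc42ep3, an effector of Cdc42, was the only one of the 9 past an unadjusted p of 0.05. It had 92.5, 104.8 and 112.6 CPM in Yap active and 114.5, 138.0, 149.8 and 112.3 CPM in controls (−0.31 ± 0.11 SE, adjusted p = 0.366). Yap active values lay at or below the lowest controls, with a narrow overlap at Yap active 4 and control 4. Its difference was −0.21 ± 0.12 SE with the library set as a covariate.

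The 4 NFI and Klf genes were all lower in Yap active (median −0.30), as were 11 of the 15 without an opened promoter (median −0.23). Under the library-set covariate the median of the 4 was 0.00, and within the second library set it was 0.11. Nfib had 169.8, 188.3 and 394.0 CPM in Yap active and 468.2, 297.1, 451.2 and 223.9 CPM in controls. Its low values are those of the first library set in both groups, and its high Yap active value is library 1 (−0.62 ± 0.29 SE, adjusted p = 0.366). Under the covariate the difference was −0.10 ± 0.21 SE. Klf6 had 133.4, 149.2 and 323.0 CPM in Yap active and 208.4, 315.9, 176.5 and 169.9 CPM in controls. The high values belong to the libraries labelled Yap active 1 and control 2, and without both the difference was −0.36 ± 0.11 SE (adjusted p = 0.122). It was −0.32 ± 0.28 SE with all libraries, −0.09 without control 2, −0.60 without Yap active 1 and 0.09 under the covariate, where the sign turned. Under the covariate and without both libraries it was −0.24.

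Of the 15 lung transcription factors, 10 were higher and 5 lower, with a median of 0.16 (0.02 under the covariate), against 0.24 in the 32 without an opened promoter. Elf3, an Ets factor of epithelia, had the smallest p of them. It had 65.2, 79.6 and 88.3 CPM in Yap active and 38.1, 62.8, 37.0 and 67.0 CPM in controls, and only the highest control reached the lowest Yap active value (0.61 ± 0.19 SE, adjusted p = 0.366). Sox9 had 5.85, 9.55 and 22.2 CPM in Yap active and 7.79, 5.47, 8.64 and 7.52 CPM in controls. It was above every control in 3 of 6 Yap active libraries (0.75 ± 0.40 SE, adjusted p = 0.366). It stood at 0.30 under the library-set covariate, at 0.08 with a replicate block and at −0.29 within the second library set. Tbx3 and Etv1 had the lowest values, at −1.12 ± 0.61 SE and −1.03 ± 0.48 SE, and stood at −0.03 and −0.29 with the library set as a covariate.

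All 4 AT2 genes with an opened promoter were higher in Yap active (median 0.52), as were 26 of 29 without one (median 0.28). Sftpd had 1466, 2187 and 3066 CPM in Yap active and 994.0, 1624, 1077 and 2436 CPM in controls (0.56 ± 0.29 SE, adjusted p = 0.366). Muc1 had 1057, 2181 and 2782 CPM in Yap active and 785.8, 1315, 1019 and 2255 CPM in controls (0.65 ± 0.34 SE, adjusted p = 0.366). In both the first library set is high and the second low in either group. Under the covariate the differences were 0.11 ± 0.21 SE for Sftpd and 0.03 ± 0.20 SE for Muc1. The AT1 genes Prdx6 and Sema3e stood at 0.25 ± 0.24 SE and −0.02 ± 0.34 SE.

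Of the 8 AP-1 and Atf genes, 2 were higher and 6 lower (median −0.32, and −0.09 under the covariate). Fos, an immediate early gene that cell handling also induces, had 39.5, 97.4 and 1038 CPM in Yap active and 458.3, 1178, 413.5 and 146.0 CPM in controls. The 2 highest values are those of the libraries labelled Yap active 1 and control 2 (−1.14 ± 0.92 SE, adjusted p = 0.474). Without them Fos stood at −1.89 ± 0.52 SE (adjusted p = 0.122), and with the library set as a covariate at −0.07 ± 0.53 SE. With the covariate and without those libraries it stood at −0.67. Fosb stood at −1.67 ± 1.30 SE, Creb1 at −0.50 ± 0.18 SE and Atf2 at −0.45 ± 0.18 SE, and under the covariate at −0.18, −0.14 and −0.11. Batf3 was higher, at 1.17 ± 0.45 SE, from 0.508 CPM in Yap active and 0.224 CPM in control cells.

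The opened promoter genes with the smallest p upward were Gabrp, P2ry2, Isyna1, Ccdc85c, Sp5, Pfkl, Tmem51 and Exoc4, with log2 fold changes of 0.64 to 0.99. Gabrp and Krt8 are also on the club and goblet list, of which 18 of 18 markers were higher in Yap active, and the 16 markers without an opened promoter had a median of 0.95. Gabrp, a GABA receptor subunit of secretory epithelium, had 50.9, 61.3 and 86.5 CPM in Yap active and 31.2, 31.8, 23.6 and 47.1 CPM in controls. The groups do not overlap (0.94 ± 0.20 SE, adjusted p = 0.366 in edgeR and 0.036 in DESeq2). P2ry2, a receptor for extracellular ATP, had 42.5, 56.4 and 58.9 CPM in Yap active and 27.3, 29.8, 22.7 and 41.5 CPM in controls. Again the groups do not overlap (0.80 ± 0.17 SE, adjusted p = 0.366 in edgeR and 0.036 in DESeq2). Both regions scored low, at 14.6 and 28.9. With the library set as a covariate Gabrp stood at 0.75 ± 0.19 SE and P2ry2 at 0.53 ± 0.13 SE, at an adjusted p of 1.0 in edgeR. With the covariate and without the libraries labelled Yap active 1 and control 2, they stood at 0.46 and 0.41. That fit compares Yap active with control 4 as the only control of its library set.

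Sp5, a target of Wnt signalling, had 25.5, 45.8 and 52.7 CPM in Yap active and 14.6, 19.9, 20.2 and 33.7 CPM in controls. The lowest Yap active value, library 1, lies below control 4 only (0.99 ± 0.25 SE, adjusted p = 0.366, and 0.49 ± 0.13 SE with the library set as a covariate). Within each library set every Yap active library lies above every control. However, control 4 is the only control of the first set and library 1 the only Yap active library of the second. Library 1 stands with the controls for Esr1, and control 2 with Yap active. Without library 1 and control 2 Sp5 stood at 1.06 ± 0.24 SE, and at 0.50 with the covariate as well. Exoc4, an exocyst subunit, had 32.4, 60.6 and 73.4 CPM in Yap active and 31.9, 38.5, 29.4 and 36.7 CPM in controls. Its lowest Yap active value is library 1 (0.75 ± 0.21 SE, adjusted p = 0.366, and 0.38 ± 0.21 SE under the covariate). Without the libraries labelled Yap active 1 and control 2 it stood at 0.93 ± 0.15 SE, and at 0.76 with the covariate as well. Krt8, a keratin of simple epithelia and of AT2 cells in transition, stood at 0.86 ± 0.33 SE, and at 0.28 under the covariate. In Yap deleted cells Gabrp stood at −0.69 ± 0.42 SE and P2ry2 at 0.72 ± 0.20 SE.

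Downward, the smallest p belonged to Caprin2, 1300002E11Rik, Arrdc3, Pik3r1, Cyth3, Smarca2, Stag2 and Timm21, with log2 fold changes of −0.73 to −0.38. Caprin2, an RNA-binding protein, had 4.87, 5.39 and 7.28 CPM in Yap active and 10.5, 8.87, 8.80 and 7.44 CPM in controls. The groups do not overlap, and the closest Yap active value is library 1 (−0.68 ± 0.17 SE, adjusted p = 0.366). Arrdc3, an arrestin family gene, stood at −0.67 ± 0.19 SE and Pik3r1, the regulatory subunit of phosphoinositide 3-kinase, at −0.48 ± 0.15 SE. Smarca2 is a chromatin remodelling ATPase and Stag2 a cohesin subunit, at −0.39 ± 0.12 SE and −0.43 ± 0.14 SE. Under the covariate Arrdc3, Pik3r1, Smarca2, Stag2 and Caprin2 stood at −0.35, −0.22, −0.17, −0.19 and −0.44. None of the 8 passed the test across all genes.

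**Figure D5:**
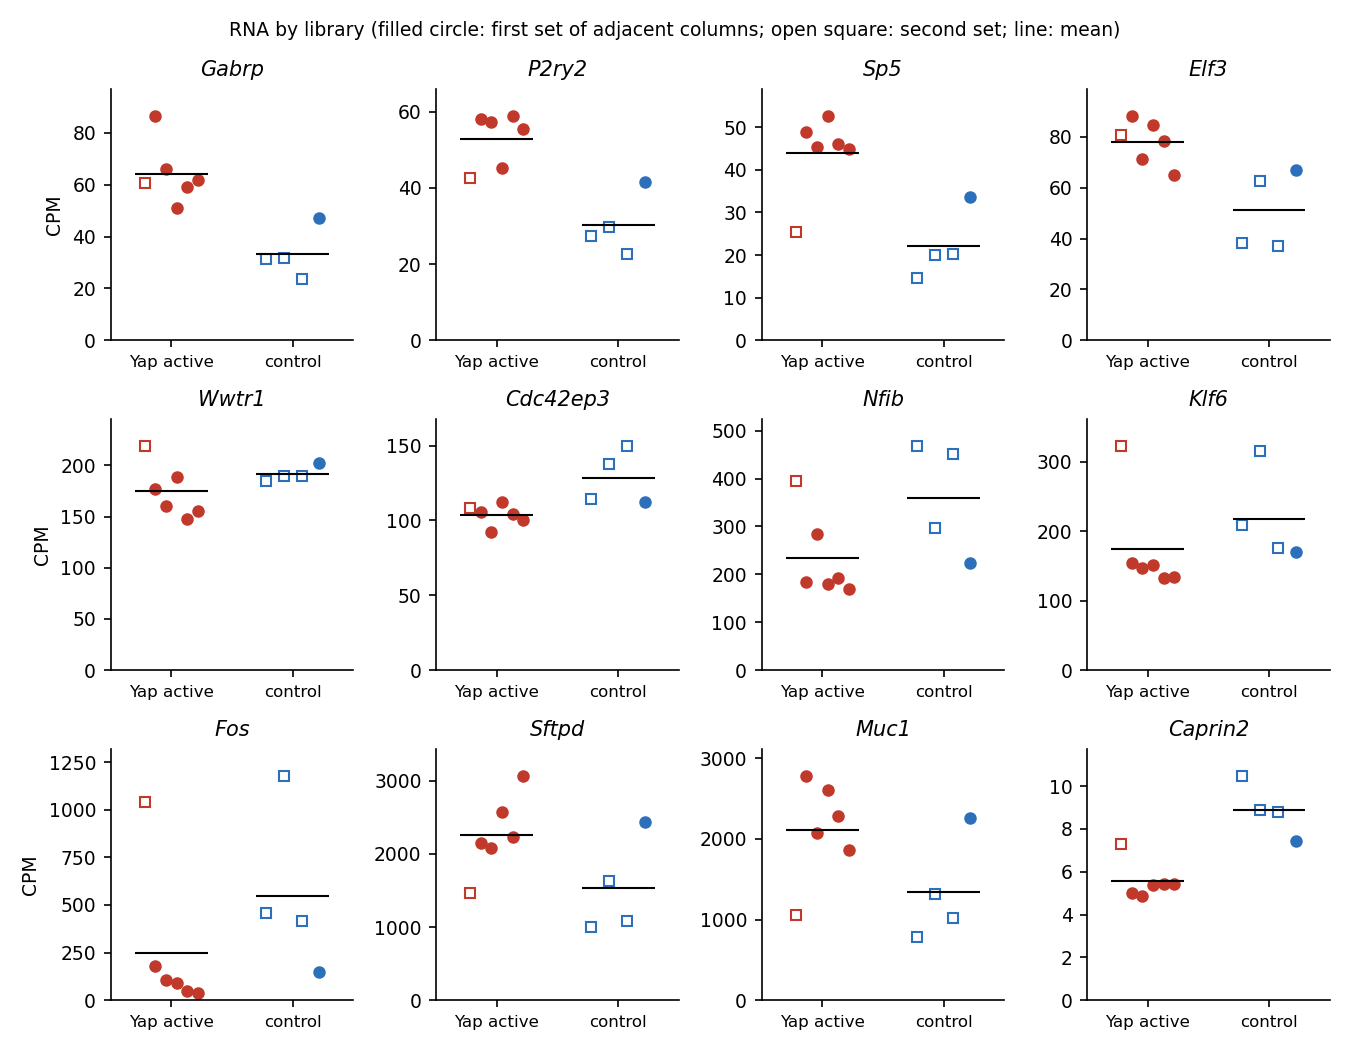
Level of 12 genes with an opened promoter in each RNA library of the Yap active table, in CPM on linear axes from 0, with Yap active left and control right and the mean as a line. Filled circles are libraries of the first library set and open squares those of the second, and for Fos, Klf6, Sftpd and Muc1 the Yap active library of the second set (library 1) lies apart from the other 5.

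Some gene classes with opened promoters leaned one way, in the same direction as their members without one. All 12 respiratory chain genes with an opened promoter were higher in Yap active (median 0.53), as were 77 of 87 without one (median 0.37). Within the library sets their medians were 0.14 in the first and −0.27 in the second, and with the library set as a covariate −0.04. All 7 mitochondrial ribosomal genes were higher (median 0.34), with −0.06 under the covariate. Of 64 zinc finger genes 48 were lower (median −0.18), and the 359 without an opened promoter had the same median of −0.18. Under the covariate the 64 stood at −0.06. The 10 cell division genes had a median of 0.55, against 0.69 in the 63 without an opened promoter, and 0.05 under the covariate. Solute carriers (35 genes, median 0.16), chromatin regulators (25, −0.03), ubiquitin system genes (52, −0.02) and Wnt genes (11, 0.11) lay closer to 0.

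Deletion of Yap gave RNA values from libraries that played no part in choosing the regions. Of 1979 opened promoter genes tested, 962 were higher and 1017 lower in Yap deleted cells, with a median of −0.011, against 0.010 for all genes. None of them was called by edgeR at an adjusted p under 0.05, against 1 of 15818 genes (0.00632%). DESeq2 called 73 of them (21 higher and 52 lower, 3.69%), against 792 of all genes (5.01%). At an unadjusted p under 0.05, 6.22% were higher and 7.93% lower, against 6.13% and 9.18% of all genes. Without controls 1 and 2, which have the high endothelial sums, 2.62% were higher and 4.08% lower, against 2.48% and 3.71% of all genes, and the median was 0.016. Leaving out 1 library at a time gave 57 (without Yap deleted 3) to 176 (without control 3) higher. It gave 66 (without control 1) to 279 (without control 4) lower. Shares of all genes with 1 library left out are not given here either. The 2 fits, of Yap active and of Yap deleted, share no library, but both tables hold 2 runs of adjacent columns. In the Yap deleted table all Yap deleted libraries and controls 3 and 4 form the first run, and controls 1 and 2 the second. The first principal component (56.9% of variance) separated these runs. In both lines most libraries of the first run were Yap active or Yap deleted. The part of the runs in a shared direction was not tested. The direction was the same in both lines for 72.0% of 1978 opened promoter genes and for 68.9% of all 15454 genes tested in both.

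Upward in Yap deleted cells the smallest p belonged to Exoc4, N28178, Hmox1, Bmp1 and Sik2. Exoc4 had 67.2, 59.1, 44.3, 56.7 and 57.2 CPM in the 5 Yap deleted libraries, against 33.2, 31.4, 28.9 and 33.3 CPM in controls. The groups do not overlap (0.85 ± 0.13 SE, adjusted p = 0.145 in edgeR and 3.01e-06 in DESeq2). Bmp1, a protease that processes procollagens, had 1414, 1035, 1047, 663.6 and 564.2 CPM in Yap deleted libraries, against 207.8, 461.1, 249.3 and 265.3 CPM in controls (1.67 ± 0.34 SE, adjusted p = 0.247). In Yap active cells Bmp1 stood at 0.85 ± 0.28 SE, with 0.97 in the first and −0.27 in the second library set. Hmox1, the haem-degrading enzyme induced by oxidative stress, stood at 0.66 ± 0.12 SE.

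Downward the smallest p belonged to Lpl, Qk, Fosl2, Rassf1 and Adcy8. Fosl2, an AP-1 subunit, had 94.2, 100.2, 97.8, 120.5 and 93.7 CPM in Yap deleted libraries, against 131.5, 138.3, 139.5 and 137.9 CPM in controls. Every Yap deleted library lies below every control (−0.43 ± 0.10 SE, adjusted p = 0.247 in edgeR and 0.00207 in DESeq2). In Yap active cells Fosl2 stood at −0.04 ± 0.19 SE. Lipoprotein lipase (Lpl) stood at −1.25 ± 0.26 SE and Rassf1, which binds the Hippo kinases, at −0.67 ± 0.16 SE. The difference between the lines was not tested.

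DESeq2 also called Camk2n2, Ldha and H6pd as higher, and Hpgd, Podxl, Gata3, Ifi44 and Gda as lower, among the opened promoter genes with the smallest p in Yap deleted cells. Of these, Podxl stood at −2.95 and Gata3 at −3.58 in DESeq2, with all controls used. Controls 1 and 2 of this line had endothelial sums of 2698.5 to 3202.9 CPM, against 326.0 to 328.5 CPM in controls 3 and 4. The part of controls 1 and 2 in these drops was not tested. Ldha, a lactate dehydrogenase subunit, has near-identical pseudogene copies, so its value is uncertain where the counting split reads among copies.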

How the data were processed

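The authors' HOMER tables of opened and closed regions give each region's place, annotation and a score; the sources used here do not say how the score was made. Peak lists hold the fold enrichment and −log10 q as the authors deposited them, in the MACS broad-peak layout, and which libraries each pools is not stated. Gene counts are raw, as deposited by the authors; the counting program and annotation are not given in the sources used here. Per the submitters' processing notes, Trim Galore, Bowtie2, Cufflinks, DESeq and HOMER were used with mm10.

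Counts were tested with edgeR 4.0.16 (quasi-likelihood, TMM, filterByExpr, R 4.3.3), each line against its own controls, with Benjamini-Hochberg adjustment over all genes tested and a threshold of 0.05. DESeq2 1.42.0, limma 3.58.1, other filters and scalings, a library-set covariate and omission of libraries were alternatives. The covariate was chosen after seeing the data. Overlaps were found with bedtools 2.31.1 (at least 1 bp). The code was tested on simulated data. Date-like gene names (27) could not be matched, and 0 columns of sample values were left unused.

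Regions and gene lists were chosen with earlier results of these data known. Genes named are those of the 8 highest-scoring, 8 widest and 3 lowest-scoring regions, members of the Hippo, Yap target, NFI and Klf, lung factor, AT1, AT2 and AP-1 lists, and the 3 highest scores of other lists. Also named are, at a mean of at least 4 CPM, the 8 genes with the smallest p in each direction in Yap active (5 in Yap deleted), genes called in any fit (up to 8 a direction), genes with 2 regions, and overlaps with Yap deleted regions (up to 8 a list). Motif shares have 95% Wilson intervals, which cover counting error only.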

Additional observations from a re-analysis of the deposited data

Results flagged for a closer look

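In 42 groups of libraries examined, 5 held 1 library far from the others, and chance gives about 1 in 20. In the Yap active group, library 1 was the highest for Caprin2 (7.28 CPM), Fos (1038.4 CPM) and Klf6 (323.0 CPM) and the lowest for Sp5 (25.5 CPM). This is the library whose Stk3 and Esr1 levels stand with the controls, and its part in these values was not tested. In the Yap deleted group, library 4 was the highest for Fosl2 (120.5 CPM) and still lay below every control.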

How the results depend on the processing

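Calls among opened promoter genes depended on the tool. In Yap active cells, 0 were called by edgeR, 2 by DESeq2 and 1165 by limma-voom with sample weights, and 0 to 1 with 1 library left out (1, Ptgs1, without control 4). In Yap deleted cells, DESeq2 called 73 and edgeR 0, also with any library left out. The Yap active median log2 fold change of −0.016 was −0.061 in the higher-scoring 50% of regions and −0.038 to −0.006 with 1 library left out. The Yap deleted median of −0.011 was −0.046 in the higher-scoring 50% and −0.051 to 0.015 with 1 library left out, turning positive without control 1 (0.015) or control 2 (0.006). Shared replicate numbers did not pair the samples (correlations 0.00905 to 0.523 and −0.255 to 0.445); with a replicate block the medians were −0.010 and −0.040, with 0 calls in each line. The causes were not tested.

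Opened promoters were 34.4% of the list, 29.6% without 5′ UTR regions, 47.1% when any region within 1 kb of a start site counted (median score 74.01) and 54.6% of the higher-scoring 50% of the list. Overlap with the Yap active peak lists was 2.32% and 0.145% when 50% of the region had to be covered, and 0% in both control lists. At −log10 q of at least 5 it was 0% in all 4 lists, and at 2, chosen after seeing the data, 0.145% in the first Yap active list and 0% in the others. With 50% covered, overlaps with regions opened and closed after Yap deletion numbered 6 and 1. Of 187 named genes, 151 in Yap active and 134 in Yap deleted kept their direction whichever library was left out. In Yap active, 118 kept it with the library set as a covariate. With that covariate and without the libraries labelled Yap active 1 and control 2, 128 kept it. In Yap deleted, 119 kept it without controls 1 and 2. Some of these genes were named for a small p in the same data, and no share over all genes is given.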
